A study of Homo sapiens with 8 samples.

Results

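The G1 cyclins, cyclin-dependent kinases (CDKs) and CDK inhibitors examined here are 10 genes: the D-type cyclins CCND1, CCND2 and CCND3, the E-type cyclins CCNE1 and CCNE2, the kinases CDK4, CDK6 and CDK2, and the inhibitors CDKN1B (p27) and CDKN2C (p18). They were chosen by gene symbol, with earlier results of these data known, and taken from the 57820 genes of each deposited table. All 10 were listed, and 9 passed the filter on low counts that left 11218 genes for testing; CCND2 did not. The study used A549, an established human lung adenocarcinoma cell line, for 2 experiments. The first set cells with an overexpression vector for MGA, whose protein binds DNA as a partner of MAX, against cells with the empty vector (Empty). The second set cells given an siRNA that silences MYC (siMYC) against cells given a negative control siRNA (siNC). Each of these 4 groups had 2 libraries, labelled A and B, and nothing in the labels says whether A and B were grown separately. A p-value here therefore reflects the spread between these libraries alone, and that spread may be technical. The spread is estimated partly from other genes, so a small p-value does not rest on the values of its own gene alone. The sources used here do not give the time after transfection or vector delivery, or whether the vector lines were clones or pools.

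Passage through G1 phase is governed by these genes. D-type cyclins bind CDK4 or CDK6 and E-type cyclins bind CDK2, and the active kinases phosphorylate the retinoblastoma protein, which releases E2F factors to switch on the genes of DNA synthesis. Inhibitors of the INK4 family, such as p18, bind CDK4 and CDK6, while those of the CIP/KIP family, such as p27, bind cyclin-CDK complexes and restrain CDK2. MYC, together with MAX, binds E-box DNA and is known to promote G1 progression, and MGA with MAX can occupy the same kind of site.

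Depth was low, with total expected counts per library between 820428 and 2129006. MGA stood at 102000 and 104000 CPM (read counts scaled by depth and TMM factors) in MGA libraries and at 122 and 81.5 CPM in Empty libraries. MYC stood at 48.3 and 41.1 CPM in siMYC libraries and at 219 and 183 CPM in siNC libraries. Of 10 lung epithelial markers 7 had counts, while NKX2-1, SFTPB and SFTPC, which define differentiated lung epithelium, were at 0 in every library. The summed level of the epithelial markers, in the authors' length-scaled TPM, was 4870 to 4950 in MGA libraries, 4970 to 5360 in Empty libraries, 7060 to 7930 in siMYC libraries and 7280 to 8410 in siNC libraries. The leukocyte markers PTPRC and CD3E were at 0, as were the endothelial markers CDH5, VWF and KDR. The summed level of 8 fibroblast markers, of which DCN was at 0, was 91.1 to 100 TPM in siMYC libraries, 15.9 to 25.3 TPM in siNC libraries, 8.99 to 28.3 TPM in MGA libraries and 12.1 to 15.5 TPM in Empty libraries. COL1A1 alone made most of it, with a mean of 86 TPM in siMYC and 13.8 TPM in siNC libraries, while COL1A2 was at 0 in both. The summed level of the 3 leukocyte markers with counts was 50 to 50.4 TPM in siMYC libraries, 20.3 to 21.3 TPM in siNC libraries, 142 to 157 TPM in MGA libraries and 170 to 181 TPM in Empty libraries. CD68 alone made most of this sum, with means of 38.5, 17.3, 140 and 168 TPM in the same order of groups. Whether these markers have a part in the changes of the 10 genes was not tested.

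The 10 genes spanned a wide range of levels per transcript length, given here in TPM. CCND1 averaged 236 ± 2.66 TPM in MGA libraries, 186 ± 0.382 TPM in Empty libraries, 208 ± 16.3 TPM in siMYC libraries and 194 ± 30.1 TPM in siNC libraries (SD, n = 2 each), and it ranked first, except in siNC libraries, where CDK4 did. CDK4, CCND1 and CCND3 were the top 3 in MGA, Empty and siMYC libraries, and CDK2 (62.4 ± 26.2 TPM) and CCND3 (58.3 ± 5.39 TPM), whose ranges overlapped, shared the third place in siNC libraries. The E-type cyclins were low, with CCNE1 between 14.3 and 33.2 TPM and CCNE2 between 4.48 and 30.1 TPM over the 8 libraries. CCND2 had 0 counts in all 8 libraries, and a count of 0 allows up to 3 counts, which is 1.38 to 3.6 CPM depending on the library. The limit covers counting error only.

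Neighbours in the order of levels often did not differ beyond their spread. In MGA libraries the ranges of CDKN1B, CDK2, CDK6, CCNE1 and CDKN2C overlapped from one to the next, and in Empty libraries those of CDK6, CCNE1, CCNE2 and CDKN2C did. CDK4 and CCND3 overlapped in Empty libraries, and CCND1 and CDK4 overlapped in siMYC libraries. The E-type cyclin values rest on few reads, 15 to 47 counts for CCNE1 and 8 to 27 for CCNE2. They also rest on a transcript length that the authors' pipeline estimated in each library: the effective length of CCNE2 ran from 833 to 2784 bases, a 3.34-fold range, and that of CDK2 from 1063 to 2004 bases.

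With MGA, 4 of the 9 tested genes changed: CDK6, CDKN1B and CDKN2C rose and CDK4 fell. Among all 11218 genes tested, 8.96% changed in this comparison, 4.96% upward and 4% downward. Since the genes were chosen with earlier results known, such shares are set beside their counts as a description and not a test. The median log2 fold change of the 9 genes was -0.28, beside 0.011 over all genes tested. With siMYC, 7 of the 9 changed, against 39% of all genes tested: CCND3, CDKN1B and CDKN2C rose, and CDK4, CDK6, CDK2 and CCNE1 fell. Here 19% of all genes tested rose and 20% fell, and the median log2 fold change was -0.56 for the 9 genes and 0.011 over all genes tested. Tests are two-sided edgeR quasi-likelihood tests on the rounded expected counts, with Benjamini-Hochberg adjustment over all genes tested and a call at an adjusted p under 0.05. With 2 libraries a group, the smallest p of an exact permutation test, 0.333, lies above the threshold, so none was used. In these bulk libraries a smaller share of cells that express a gene cannot be told apart from less RNA per cell.

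**Figure D1:**
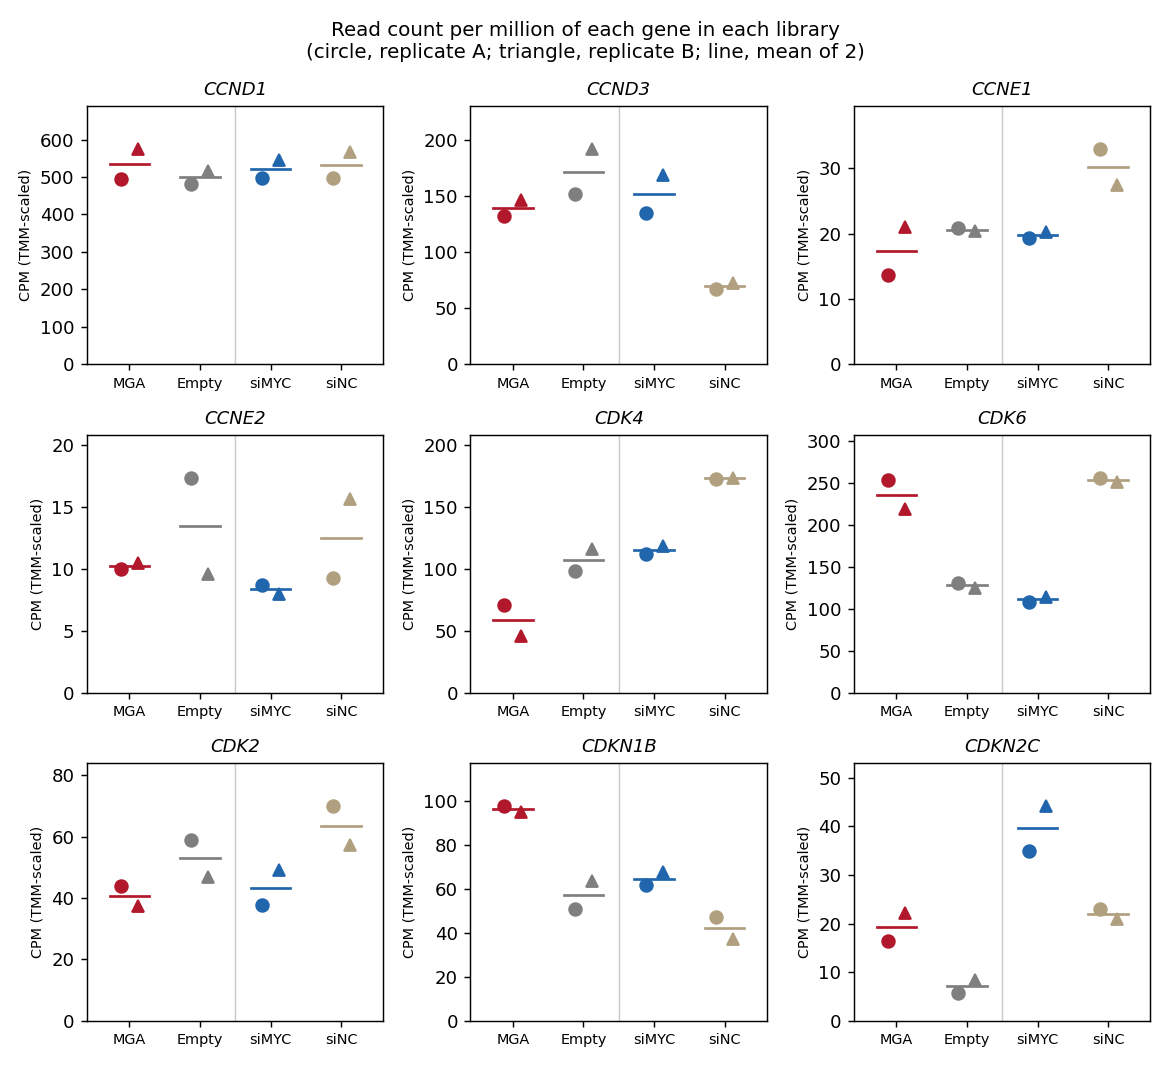
CPM (TMM-scaled counts, vertical axis from 0 in each panel) of the 9 tested genes in each library of MGA, Empty, siMYC and siNC; circles are replicate A, triangles replicate B, and lines the mean of 2. CDK6 was at 253 and 218 CPM in MGA libraries, above both Empty libraries, and at 108 and 114 CPM in siMYC libraries, below both siNC libraries.

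The kinases that D-type cyclins activate, CDK4 and CDK6, moved apart with MGA. CDK6 stood at 253 and 218 CPM in MGA libraries, against 130 and 125 CPM in Empty libraries. Both MGA libraries were above both Empty libraries, and CDK6 rose by 0.90 on the log2 scale, with an SE of 0.13 (adjusted p = 3.4e-05 in edgeR). When the effective transcript lengths were taken into account, an alternative chosen after seeing the data, its log2 fold change was 0.62 and the call was lost (adjusted p = 0.11), as it was on log2(TPM + 1) in limma (0.62, adjusted p = 0.24). CDK4 stood at 71.2 and 45.6 CPM in MGA libraries, against 98.4 and 116 CPM in Empty libraries. The groups did not overlap, although the MGA libraries lay apart from each other, and CDK4 fell by 0.84 on the log2 scale, with an SE of 0.19 (adjusted p = 0.0041). TSPAN31, which overlaps CDK4 on the opposite strand, had 18 to 72 counts. Since the strand setting of the counting is not stated, reads from the overlap may have been counted for either gene. The expected count of CDK4 was 85.11 in Empty replicate A and a whole number in each other library. The effect of the overlap was not tested. The CDK4 call was lost when Empty replicate B was left out (log2 fold change -0.73, adjusted p = 0.093) or MGA replicate B was (-0.59, adjusted p = 0.11).

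With siMYC, both kinases fell. CDK6 stood at 108 and 114 CPM in siMYC libraries, against 256 and 251 CPM in siNC libraries. The log2 fold change was -1.20 with an SE of 0.11 (adjusted p = 1.7e-09). Replicates lay within a few CPM of each other and the groups were far apart. CDK4 stood at 112 and 119 CPM in siMYC libraries, against 173 and 174 CPM in siNC libraries, again without overlap. Its log2 fold change was -0.59 with an SE of 0.13 (adjusted p = 0.00047). The response of CDK6 differed between the experiments: the MGA response minus the siMYC response was 2.09 on the log2 scale with an SE of 0.17 (adjusted p = 1.2e-09), the tenth smallest p among the genes tested for this difference. For CDK4 that difference was -0.26 (SE 0.23, adjusted p = 0.48), so no difference between the responses was detected.

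The makeup of the CDK4 and CDK6 pool shifted in opposite directions. CDK6 made up 27.4% and 24.5% of the summed CDK4 and CDK6 TPM in MGA libraries, against 11.9% and 11.1% in Empty libraries. It made up 6.88% and 7.07% in siMYC libraries, against 11.9% and 11.3% in siNC libraries. The control libraries of both experiments thus had nearly the same share, while their CDK6 levels differed, at 127 ± 3.5 CPM in Empty libraries and 254 ± 4.04 CPM in siNC libraries (SD, n = 2 each). Control agent and experiment cannot be told apart between these controls, and no test was made between them. With the length of each gene held at its geometric mean over the 8 libraries, the mean shares were 27.1% with MGA and 9.68% with Empty, and 7.92% with siMYC and 11.6% with siNC.

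**Figure D2:**
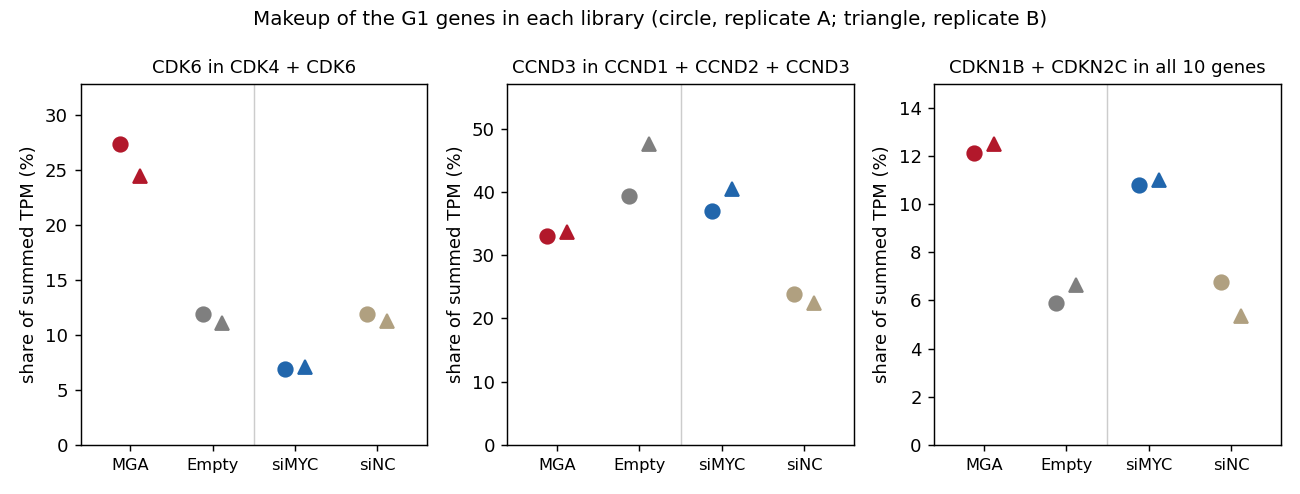
Share of summed TPM (%, vertical axis from 0) that CDK6 took of CDK4 and CDK6 (left), that CCND3 took of the D-type cyclins (middle), and that both inhibitors took of all 10 genes (right), in each library of MGA, Empty, siMYC and siNC. The CDK6 share was 27.4% and 24.5% in MGA libraries and 6.88% and 7.07% in siMYC libraries, on either side of the control libraries.

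The promoters of both kinases are shown because E-box DNA, the letters CACGTG, is the textbook site of MYC with MAX and of MGA with MAX. The windows hold 250 bases before and 50 after a transcript start, from RefSeq on GRCh38.p14, a build other than the authors' hg19, each written 5′ to 3′ on its gene's strand; both genes lie on the minus strand. Capitals mark each CACGTG. The CDK4 window, chr12:57752261-57752560, held 3 of them, starting 216, 196 and 101 bases before the transcript start, and the first of 2 CDK6 windows, chr7:92836524-92836823, held 1, which starts 31 bases downstream.
CDK4: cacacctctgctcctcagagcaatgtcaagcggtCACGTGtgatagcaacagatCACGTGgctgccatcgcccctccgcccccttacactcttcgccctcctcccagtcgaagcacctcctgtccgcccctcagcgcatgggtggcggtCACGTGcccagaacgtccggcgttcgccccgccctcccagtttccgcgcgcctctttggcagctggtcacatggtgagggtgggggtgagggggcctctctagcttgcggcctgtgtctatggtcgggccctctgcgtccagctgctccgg
CDK6: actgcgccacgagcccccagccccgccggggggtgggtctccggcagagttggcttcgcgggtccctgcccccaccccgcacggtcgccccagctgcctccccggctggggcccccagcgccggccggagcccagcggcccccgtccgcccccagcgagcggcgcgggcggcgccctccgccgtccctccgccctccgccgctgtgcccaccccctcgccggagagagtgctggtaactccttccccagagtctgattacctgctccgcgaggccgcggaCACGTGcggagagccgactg
Of 35116 such windows of all genes, 7.26% held CACGTG, which reads the same on both strands.

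RefSeq windows were matched for 6 of the 10 genes (11 windows), not for CCND1, CCND2, CCNE2 and CDK2. CACGTG was in 4 of the 11, in CDK4, CDK6 and CDKN2C. The letters TTTNNCGC, an E2F site, were in 0 of the 11 on either strand and in 6.89% of all windows. GGTGTGA, part of the site of T-box factors such as MGA, was in 1 CDKN2C window and in 3.45% of all windows, and the GC box GGGCGG was in 8 of the 11 and in 45.0% of all windows. No match overlapped a match of another of these motifs. A match describes letters in a window and is neither a bound site nor a cause of a change.

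The inhibitors rose in both experiments. CDKN1B, whose protein p27 binds cyclin E with CDK2, stood at 97.6 and 94.6 CPM in MGA libraries, against 50.9 and 63.6 CPM in Empty libraries, a log2 fold change of 0.75 with an SE of 0.19 (adjusted p = 0.0098). It stood at 61.6 and 67.5 CPM in siMYC libraries, against 47.2 and 37.3 CPM in siNC libraries, a log2 fold change of 0.62 with an SE of 0.17 (adjusted p = 0.0042). In neither experiment did the groups overlap. The difference between its responses was 0.13 on the log2 scale with an SE of 0.25 (adjusted p = 0.77), which was not detectable at this depth. Its MGA call was lost when Empty replicate A (adjusted p = 0.16) or MGA replicate A (adjusted p = 0.094) was left out. Its siMYC call was lost when siNC replicate B was (log2 fold change 0.43, adjusted p = 0.12).

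CDKN2C, which encodes the INK4 protein p18, had the lowest TPM of the genes that changed with MGA. It had 18 and 19 counts in MGA libraries (16.4 and 22.2 CPM), against 5 and 7 counts in Empty libraries (5.79 and 8.39 CPM). The groups did not overlap, and CDKN2C rose by 1.41 on the log2 scale, with an SE of 0.43 (adjusted p = 0.036 in edgeR). This call was lost when any 1 of the 4 overexpression libraries was left out, with log2 fold changes of 1.17 without Empty replicate A, 1.69 without Empty replicate B, 1.64 without MGA replicate A and 1.21 without MGA replicate B. With siMYC, CDKN2C stood at 34.9 and 44.2 CPM, against 22.9 and 21 CPM with siNC, without overlap, and rose by 0.84 on the log2 scale with an SE of 0.22 (adjusted p = 0.0029). That call held without each of the 8 libraries in turn. It was lost in DESeq2 (log2 fold change 0.89, adjusted p = 0.13), on log2(TPM + 1) in limma (0.98, adjusted p = 0.075) and with effective lengths in edgeR (0.88, adjusted p = 0.061).

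Together both inhibitors took 12.1% and 12.5% of the summed TPM of the 10 genes in MGA libraries, against 5.88% and 6.63% in Empty libraries. They took 10.8% and 11% in siMYC libraries, against 6.78% and 5.35% in siNC libraries. The share was higher in each treated library than in either of its controls. The promoter windows of both are shown as genes that rose together: that of CDKN1B, chr12:12717118-12717417 on the plus strand, held no CACGTG, and the third of 3 CDKN2C windows, chr1:50969995-50970294 on the plus strand, held 1, marked in capitals, 69 bases before the start.
CDKN1B: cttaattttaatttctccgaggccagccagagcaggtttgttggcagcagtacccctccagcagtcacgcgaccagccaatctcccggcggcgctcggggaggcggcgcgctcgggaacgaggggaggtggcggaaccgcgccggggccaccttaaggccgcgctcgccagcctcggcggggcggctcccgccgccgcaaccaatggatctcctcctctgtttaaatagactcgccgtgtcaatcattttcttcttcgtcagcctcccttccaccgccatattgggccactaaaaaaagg
CDKN2C: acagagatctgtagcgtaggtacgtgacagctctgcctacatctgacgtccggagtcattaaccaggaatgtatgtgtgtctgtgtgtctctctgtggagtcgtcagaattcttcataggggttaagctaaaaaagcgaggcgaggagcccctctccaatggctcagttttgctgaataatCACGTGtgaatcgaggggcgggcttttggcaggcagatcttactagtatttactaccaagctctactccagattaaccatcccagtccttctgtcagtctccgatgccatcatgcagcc
The first CDKN2C window also held 1, and the second held none.

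Of 5 other inhibitors of these families, 4 had too few counts to be tested. CDKN2A and CDKN2B, neighbouring INK4 genes that are known to be deleted in A549 cells, had 0 counts in all 8 libraries. CDKN1C had 0 to 5 counts a library. CDKN2D had 4 and 4 counts in MGA libraries and 5 and 2 in Empty libraries, and 10 and 4 in siMYC libraries and 1 and 0 in siNC libraries. CDKN1A (p21), a CIP/KIP inhibitor and p53 target, was the 1 tested gene. It averaged 383 ± 5.71 CPM in MGA libraries and 273 ± 6.8 CPM in Empty libraries (SD, n = 2; log2 fold change 0.48, adjusted p = 0.0052 in edgeR). It averaged 227 ± 19.3 CPM in siMYC libraries and 100 ± 12.4 CPM in siNC libraries (log2 fold change 1.16, adjusted p = 6.6e-09). The groups lay apart in both, and the MGA response minus the siMYC response was -0.68 on the log2 scale with an SE of 0.16 (adjusted p = 0.0034). With MGA its call was lost when any 1 of the 4 overexpression libraries was left out, with adjusted p between 0.051 and 0.079. It was also lost on log2(TPM + 1) in limma (adjusted p = 0.14), while the siMYC call held there (adjusted p = 0.0025).

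Of the D-type cyclins, which link growth signals to CDK4 and CDK6, CCND3 changed with siMYC. It stood at 135 and 169 CPM in siMYC libraries, against 67.2 and 72.9 CPM in siNC libraries, and rose by 1.10 on the log2 scale with an SE of 0.14 (adjusted p = 5.9e-07). It stood at 132 and 147 CPM in MGA libraries, against 152 and 192 CPM in Empty libraries, a log2 fold change of -0.30 with an SE of 0.15 (adjusted p = 0.24). In CPM the libraries of each pair did not overlap, and the MGA difference did not pass the test. In TPM, CCND3 was at 116 and 121 in MGA libraries and at 121 and 169 in Empty libraries, and these groups overlapped. The MGA response minus the siMYC response was -1.40 on the log2 scale with an SE of 0.21 (adjusted p = 2.1e-05), so the responses of CCND3 differed between the experiments. This is the reverse of CDK6, and both differences kept their call when each of the 8 libraries was left out in turn. In this comparison of responses 2 of the 9 genes were called, 1 in each direction, against 18.5% of all genes tested: 10.3% had a higher response with MGA than with siMYC and 8.22% a lower one.

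CCND3 took 33.1% and 33.7% of the summed D-type cyclin TPM in MGA libraries, against 39.3% and 47.6% in Empty libraries. It took 37% and 40.5% in siMYC libraries, against 23.9% and 22.4% in siNC libraries. CCND1, the most abundant D-type cyclin in each group, carried the rest. CCND1 stood at 494 and 574 CPM in MGA libraries, against 482 and 517 CPM in Empty libraries, and the groups overlapped (log2 fold change 0.09, SE 0.10, adjusted p = 0.65). It stood at 497 and 544 CPM in siMYC libraries, against 498 and 567 CPM in siNC libraries, again with overlap (log2 fold change -0.04, SE 0.09, adjusted p = 0.79). The sign of each of these small values turned under other scalings. LTO1, on the opposite strand, overlaps CCND1 and had 17 to 41 counts.

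On the authors' TPM scale, CCND1 was at 234 and 238 TPM in MGA libraries, against 186 TPM in each Empty library, so the groups that overlapped in CPM did not overlap in TPM. The effective length of CCND1 was 3065 and 3505 bases in MGA libraries, against 3722 and 3875 bases in Empty libraries. On log2(TPM + 1) the difference was 0.34 (limma, adjusted p = 0.23) and did not pass the test either.

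Of the E-type cyclins and their kinase CDK2, CDK2 and CCNE1 fell with siMYC, and with MGA their differences did not pass the test in edgeR. CDK2 stood at 37.7 and 49.1 CPM in siMYC libraries, against 70 and 57.1 CPM in siNC libraries, and fell (log2 fold change -0.56 with an SE of 0.18, adjusted p = 0.012). With MGA it stood at 43.8 and 37.4 CPM, against 59 and 46.8 CPM with Empty, which did not pass the test (log2 fold change -0.37, SE 0.24, adjusted p = 0.37). The siMYC call was lost without siNC replicate A (-0.42, adjusted p = 0.13) or siMYC replicate A (-0.36, adjusted p = 0.19). The MGA response of CDK2 minus its siMYC response was 0.19 with an SE of 0.29 on the log2 scale (adjusted p = 0.72).

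CCNE1 stood at 19.3 and 20.3 CPM in siMYC libraries, against 32.9 and 27.4 CPM in siNC libraries, and fell by 0.60 on the log2 scale with an SE of 0.23 (adjusted p = 0.039). Its adjusted p was the largest among the 7 genes called with siMYC. It was lost without siNC replicate A (adjusted p = 0.2), without siMYC replicate A (adjusted p = 0.16) and without siMYC replicate B (adjusted p = 0.075), and with each of 3 other scalings, where the adjusted p was 0.054 to 0.056. That siMYC call was also lost in edgeR with no filter (adjusted p = 0.055), without MGA's own counts (0.066) and with effective lengths (0.36). DESeq2 (adjusted p = 0.39) and limma on both TPM scales (0.6 each) lost it too. With MGA, CCNE1 stood at 13.7 and 21 CPM, against 20.8 and 20.4 CPM with Empty, and the groups overlapped (log2 fold change -0.28, SE 0.34). In TPM its mean was 22 ± 11 with MGA and 20.5 ± 0.94 with Empty (SD, n = 2 each), so the order of the means turned. CCNE2 stood at 8.73 and 7.98 CPM in siMYC libraries, against 9.29 and 15.7 CPM in siNC libraries (log2 fold change -0.60, SE 0.38, adjusted p = 0.22). It stood at 10 and 10.5 CPM in MGA libraries, against 17.4 and 9.59 CPM in Empty libraries (log2 fold change -0.40, SE 0.47, adjusted p = 0.68). Neither difference of CCNE2 could be told from the spread at these counts, and INTS8, which overlaps CCNE2 on the opposite strand, had 37 to 124 counts.

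**Figure D3:**
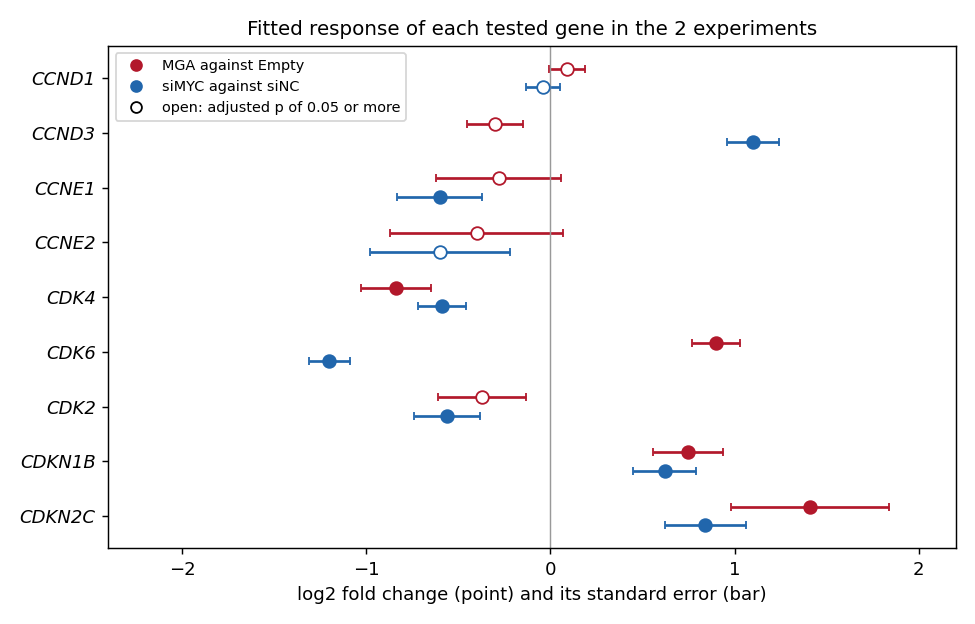
Log2 fold change (horizontal axis; bars are standard errors) of the 9 tested genes for MGA against Empty (red, upper of each pair) and siMYC against siNC (blue, lower); open circles did not pass an adjusted p of 0.05. CDK6 lies at 0.90 with MGA and -1.20 with siMYC, while CDKN1B, CDKN2C and CDK4 lie on the same side of 0 in both.

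Over all 9 genes, CPM of the groups did not overlap for 6 with MGA, 3 higher and 3 lower, beside 52.6% of all genes tested, 27.6% higher and 25% lower. For siMYC they did not overlap for 8, 3 higher and 5 lower, beside 67.6% of all genes tested, 34% higher and 33.6% lower. The 4 calls with MGA became 2 when any of the 4 overexpression libraries was left out: CDK4 and CDK6 without Empty replicate A or MGA replicate A, and CDK6 and CDKN1B without Empty replicate B or MGA replicate B. CDK6 was called in each of these. On TPM in limma, and with effective lengths in edgeR, 0 of the 9 genes were called with MGA, although 5 had an unadjusted p under 0.05 (the same 4 and CCND1), and CCND3 and CDK6 were called with siMYC. DESeq2, which gave no adjusted p for CDKN2C with MGA, called 2 with MGA, CDK4 and CDK6, and 3 with siMYC, CCND3, CDK4 and CDK6. In those fits, too, CCND3 and CDK6 were the genes whose responses differed between the experiments. With siMYC the count was 5 to 7 without each library in turn, and CCND3, CDK4, CDK6 and CDKN2C were called in each of them.

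The rest of the G1 machinery was examined by lists, which were also chosen with earlier results of these data known. Among 8 genes that activate or restrain CDKs, 2 fell with MGA and 3 with siMYC, and none of the others passed in edgeR. Of all genes tested, 8.96% changed with MGA, 4% downward, and 39% changed with siMYC, 20% downward. CDC25B, a phosphatase that activates CDKs, fell with MGA (log2 fold change -1.57, SE 0.14, adjusted p = 1.5e-08), while CDC25A, its relative at the G1/S transition, fell with siMYC (-1.61, SE 0.26, adjusted p = 1.1e-05). The MGA and siMYC responses differed for each of them, by -1.73 for CDC25B (adjusted p = 3.3e-08) and by 1.15 for CDC25A (adjusted p = 0.046). PKMYT1, a kinase that restrains CDK1, fell in both (-1.10 with MGA and -1.20 with siMYC). CCNH, the cyclin of the CDK-activating kinase, fell with siMYC (-0.66, SE 0.23). The PKMYT1 call with MGA was lost without Empty replicate B and without MGA replicate A, and the CCNH call without siNC replicate A and without siMYC replicate A. Limma on log2(TPM + 1) called CDC25B alone with MGA and CDC25A alone with siMYC.

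Of 7 genes for the turnover of G1 cyclins and p27, 1 fell with MGA and 2 fell with siMYC, beside 4% and 20% of all genes tested. CKS1B, the cofactor that lets the ubiquitin ligase subunit SKP2 recognise p27, fell with MGA (log2 fold change -1.47, SE 0.20, adjusted p = 1e-05) and with siMYC (-0.75, SE 0.13, adjusted p = 2.5e-05). SKP2 fell with siMYC (-0.93, SE 0.18, adjusted p = 0.00013) and had a log2 fold change of -0.98 with MGA, which did not pass (SE 0.33, adjusted p = 0.064). On log2(TPM + 1) in limma both siMYC calls were lost (adjusted p = 0.063 for CKS1B and 0.11 for SKP2), and DESeq2 lost that of SKP2 (0.059), while the CKS1B call with MGA held in both. Of 13 retinoblastoma and E2F family genes, 1 fell with MGA, the E2F partner TFDP1 (-0.60, adjusted p = 0.027). Its call was lost without each of the 4 overexpression libraries. With siMYC, E2F1, RBL1, E2F5 and TFDP1 fell, with log2 fold changes of -1.33, -1.26, -0.94 and -0.50. These 1 and 4 of 13 stand beside 8.96% and 39% of all genes tested that changed, 4% and 20% downward. The siMYC count of 4 became 2 in DESeq2 (E2F1 and RBL1), 1 on log2(TPM + 1) in limma and 1 with effective lengths (E2F1 in both). It was 3 when siNC replicate A, siNC replicate B or siMYC replicate A was left out and 7 when siMYC replicate B was. E2F1 was called in all of these.

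Many genes that act at the G1/S transition and after it fell. Of 18 genes switched on at the G1/S transition, 10 fell with MGA (median log2 fold change -0.68) and 18 fell with siMYC (median -1.04). Beside these, 4% of all genes tested fell with MGA and 20% with siMYC, with a median log2 fold change of 0.011 in each comparison. RRM2, of deoxynucleotide synthesis, fell by 1.07 with MGA and by 1.36 with siMYC on the log2 scale. Of 10 genes of S phase to mitosis, which are cyclins, kinases and CDC20, 7 fell with MGA (median -0.84) and 10 with siMYC (median -0.85). CCNB1 fell by 0.86 with MGA and by 1.05 with siMYC. Without each overexpression library in turn, the count with MGA was 5 or 6 for the first list. For the second list it was 3 when Empty replicate A or MGA replicate B was left out, and 2 when MGA replicate A was. On log2(TPM + 1) in limma both counts with MGA were 0, although 11 and 8 genes had an unadjusted p under 0.05, while DESeq2 called 7 and 5. With siMYC limma called 6 and 5 and DESeq2 14 and 8. With effective lengths in edgeR the lists had 3 and 0 calls with MGA and 12 and 7 with siMYC.

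Among 20 tested cyclins and CDKs that act outside G1, 2 rose with MGA, CCNT2 and CCNL1, and with siMYC 3 rose and 1 fell. These 2 and 4 of 20 stand beside 8.96% and 39% of all genes tested. DESeq2 called 0 with MGA (2 at an unadjusted p under 0.05) and 3 with siMYC, and limma on log2(TPM + 1) called 0 with MGA (4 at an unadjusted p under 0.05) and 1 with siMYC. CCNG2 (2.32), CDK19 (1.73) and CCNI (0.35) rose on the log2 scale, and CDK12 (-0.52) fell. The CCNT2 call was lost without Empty replicate A, Empty replicate B or MGA replicate B, and the CCNL1 call without Empty replicate A, Empty replicate B or MGA replicate A. The CCNI call was lost without siNC replicate B or siMYC replicate A.

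**Figure D4:**
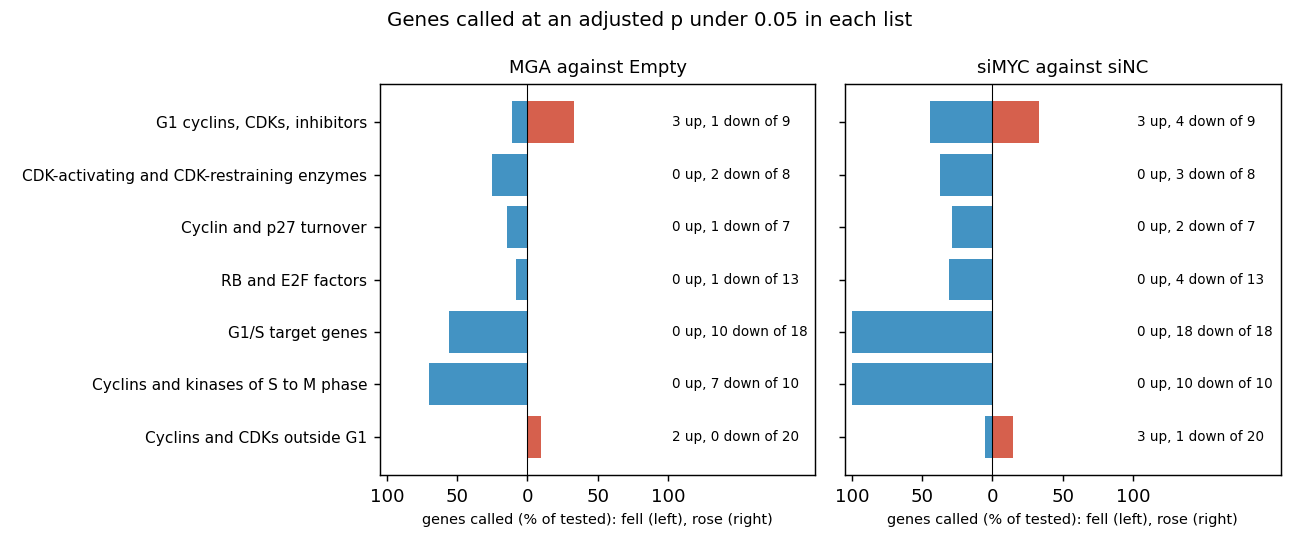
Percent of tested genes of each list that fell (left of 0) or rose (right of 0) at an adjusted p under 0.05, for MGA against Empty (left panel) and siMYC against siNC (right panel), with the numbers beside each bar. The list of cyclins and kinases of S to M phase also includes CDC20, which is neither. The 9 tested G1 genes had calls in both directions, 3 up and 1 down with MGA and 3 up and 4 down with siMYC. Calls over all genes tested were 8.96% with MGA and 39% with siMYC.

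The genes whose pattern was most like that of each member were found by Pearson's r over the 8 libraries, on log2 CPM centred within each experiment, among 6527 genes with a mean log2 CPM of at least 5. The 8 points share their experiment and fall into groups of 2, so r is a description of these libraries. A high r does not mean changes of the same size. CDK6 was most like WBP11 (r = 0.985), ILK and KAT6A (0.984 each). CCND3 was most like TMEM184C (0.998), FADS2 (0.984) and GRAMD1A (0.982). In that order, their log2 fold changes were -0.09, -0.18 and -0.23 with MGA, and 0.31, 0.69 and 0.93 with siMYC. CDK4 was most like TCTN3, M6PR and KIF4A, CDK2 like COPS6, SNTB2 and GMNN, and CCNE1 like FLVCR1, CDCA5 and UPF2. CDKN1B was most like TRAPPC11, KMT2E and EXOC3, and CDKN2C like PCNXL2, PLEK2 and TP53BP2. The best match had a lower r for CCND1 (GPX4, 0.969) and CCNE2 (EIF3F, 0.947).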

How the data were processed

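RNA was sequenced from 8 A549 libraries, 2 in each of 4 groups taken from the labels. Per the file headers, each deposited table gives expected counts, TPM, FPKM and lengths per gene; per the submitters' processing notes the authors used STAR, RSEM and hg19, for which the sources used here give no version or annotation. The TPM values were computed by the authors from effective lengths that differ between libraries, and the deposited FPKM values were not used in any test. The authors' expected counts were rounded to whole numbers, genes were kept by filterByExpr at a minimum count of 10, and TMM factors and quasi-likelihood tests came from edgeR 4.0.16 in R 4.3.3, with 4 groups, 4 residual degrees of freedom and Benjamini-Hochberg adjustment over all 11218 genes tested. The spread of each gene was moderated by that of the other genes tested, beyond the 4 residual degrees of freedom. Each SE, also in the figure of fold changes, is the absolute log2 fold change divided by the square root of its F statistic. The strand setting of the counting is not stated.

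Alternatives were DESeq2 1.42.0, limma 3.58.1 on log2(TPM + 1) and log2(TPM + 0.1), other scalings, no filter, each experiment alone, a replicate block and leaving out each library. Effective lengths as offsets were chosen after seeing the data. The script was tested on simulated data, drawn with the spread fitted to these counts. The condition it had to meet covered fitted fold changes and not calls. The 10 genes and the lists were chosen with earlier results of these data known. Named were all 10 genes and, from each list, at most the 4 called genes with the smallest p in each comparison, of which some are given only as counts, plus for each gene the 3 with the most similar pattern. Total expected counts, 820428 to 2129006 per library, limit precision for genes with few counts.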

Additional observations from a re-analysis of the deposited data

Results flagged for a closer look

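The responses of CDK6 and CCND3 differed between the experiments by a test of the difference itself. For CDK6 the MGA response minus the siMYC response was 2.09 on the log2 scale with an SE of 0.17 (edgeR, adjusted p = 1.2e-09): CDK6 averaged 236 CPM in MGA and 127 CPM in Empty libraries, and 111 CPM in siMYC and 254 CPM in siNC libraries. For CCND3 it was -1.40 with an SE of 0.21 (adjusted p = 2.1e-05): CCND3 averaged 140 CPM in MGA and 172 CPM in Empty libraries, and 152 CPM in siMYC and 70 CPM in siNC libraries. Both control groups differ in agent and experiment, which cannot be told apart.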

How the results depend on the processing

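The CDK6 and CCND3 differences between the experiments kept their direction and call in all 18 alternatives, so that 2 genes were called there in each. With MGA, 4 of the 9 genes were called in the reported fit, 2 in DESeq2, 0 on log2(TPM + 1), 0 on log2(TPM + 0.1), 0 with effective lengths as offsets, which was chosen after seeing the data, and 2 to 4 when 1 library was left out. With siMYC the counts were 7, 3, 2, 2, 2 and 5 to 7 in the same order. The cause of these losses was not tested. The replicate block gave 4, 7 and 2, changing no call of the 9 genes; the letters A and B are not stated to pair libraries, and deviations of libraries with the same letter correlated at 0 in the overexpression and 0.25 in the siRNA experiment.

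Values that changed sign had not passed the test. With MGA, CCND1 was -0.04 on library sizes alone and -0.02 to 0.20 with 1 library left out, CCNE1 was 0.01 on both TPM scales and -0.59 to 0.03, and CCNE2 was -0.76 to 0.09. With siMYC, CCND1 was 0.01 with RLE, upper-quartile or no scaling factors and in DESeq2, 0.10 on both TPM scales, 0.03 without MGA's own counts and -0.13 to 0.05 with 1 library left out. For the difference between responses, library sizes alone gave -0.04 for CCND1 and -0.04 for CDKN1B, and CCNE2 was -0.02 on log2(TPM + 1) and 0 with offsets. Leaving out 1 library gave -0.24 to 0.70 for CCNE2, -0.64 to 0 for CDK4, -0.01 to 0.38 for CDK2 and -0.03 to 0.32 for CDKN1B. Over all genes, DESeq2 called 358 with MGA and 1971 with siMYC, against 1005 and 4370 in edgeR. DESeq2 gave no adjusted p for CCNE1, CCNE2 and CDKN2C with MGA and in the difference between responses, or for CCNE2 with siMYC.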

Other observations

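The E-type cyclins together took 3.62% and 6.6% of the summed TPM of the 10 genes in MGA libraries, against 8.25% and 3.84% in Empty libraries. They took 3.73% in each siMYC library, against 5.66% and 4.16% in siNC libraries. The groups overlapped in the first experiment and not in the second.

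MYC stood at 296 and 347 CPM in MGA libraries, against 234 and 241 CPM in Empty libraries, a log2 fold change of 0.43 (edgeR, adjusted p = 0.025). In siMYC libraries the log2 fold change of MYC was -2.15 (adjusted p = 2.9e-12). No other fit is given here for MYC. In the reported fit MYC thus moved in opposite directions in the 2 experiments. CDK6 did too, while CDK4, CDKN1B and CDKN2C moved in the same direction in both. CCND3 had log2 fold changes of -0.30 with MGA, which did not pass the test, and 1.10 with siMYC. Whether the MYC level in MGA libraries has a part in these changes was not tested.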
